A study of Mus musculus with 4 samples.

Results

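Low-pileup EBF1-wt-only peaks are lower peaks called for wild-type EBF1 where no peak was listed for the mutant EBF1-H240A. They are peak calls, named sites below, and binding at them was not checked separately. A site was taken when its EBF1-wt interval shared no base with any EBF1-H240A interval and its pileup, the fragment coverage at the summit on the scale of the peak caller, was below 30. Only the 19 autosomes and chromosome X were used. The rule gave 1594 sites out of 4422 EBF1-wt peaks and out of 7181 peaks in both lists together. The missing EBF1-H240A call and the low pileup chose the sites, so neither is a finding, and heights tied to the pileup are given as description.

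The study mapped EBF1 by chromatin immunoprecipitation and sequencing (ChIP-seq) in pro-B cells of C57BL/6 mice transformed with A-MuLV, the Abelson murine leukaemia virus. All cells carried a conditional Ebf1 allele (Ebf1fl/fl) and RERTCre, a Cre recombinase that tamoxifen activates. The EBF1-wt group received pmys-EBF1wt-IRES-GFP and the EBF1-H240A group pmys-EBF1-H240A-IRES-GFP, so in both the EBF1 under study came from a transduced GFP vector and not from its own gene. Both groups were exposed to 2 μM 4-hydroxytamoxifen (4-OHT) from 24 h after transduction, and GFP-positive cells were sorted and expanded. The day of the sort is stated differently in the series text and in the protocol, and the antibody is not named in the labels. There were 4 libraries, 1 ChIP and 1 input for each protein. With 1 ChIP library per protein there is no replicate error, and no difference below has a test. The peak lists do not measure any EBF1 left from the original allele, nor markers of the cell type.

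EBF1 (early B-cell factor 1) is a transcription factor that specifies and maintains the B-cell lineage. It binds DNA as a dimer at a short palindromic motif, and in early B cells it occupies both promoters and distal enhancers, where it can act in chromatin that other factors have not yet opened. A ChIP-seq peak is a stretch where precipitated fragments exceed a local reference level. Low peaks can be sites bound in few cells, bound briefly, or reached through a neighbouring protein, and the height alone does not separate these.

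The low-pileup EBF1-wt-only sites had between 18 and 47 fragments at the summit, with a median of 34. One fragment was worth 0.635 on the pileup scale, so the pileups ran from 11.4 to 29.8 with a median of 21.6. The sites were 73.5% of the 2169 EBF1-wt-only peaks on the chromosomes used, and the other 575 had 48 to 143 fragments. The limit of 30 cuts a continuous range. Just inside it were 43 EBF1-wt-only peaks with 47 fragments, a pileup of 29.8 and a median fold enrichment of 7.71, where fold enrichment is the pileup over the local reference level, with 1 added to each. Just outside were 35 with 48 fragments, a pileup of 30.5 and a median fold of 9.59, while the 33 with 49 fragments had a median fold of 8.02. The 5 listed first outside the limit were taken from the 35 with 48 fragments by the peak caller's score (−log10 q-value). Their 10.9-fold enrichment, above the median of 9.59, is set by that choice. They lay at 72877086 to 72877382 on chromosome 1, 163416797 to 163417085 on chromosome 2, 93358594 to 93358888 on chromosome 3, 74495235 to 74495490 on chromosome 10 and 113826732 to 113826997 on chromosome 12 (mm9 build).

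Most EBF1-wt peaks of this height had no EBF1-H240A counterpart, and the share fell as the EBF1-wt summit rose. Of all 4419 EBF1-wt peaks on the chromosomes used, 49.1% shared no base with an EBF1-H240A peak. Under the pileup limit it was 1594 of 2139 peaks, or 74.5% (95% Wilson interval 72.6 to 76.3), and at a pileup of 30 or more it was 25.2% (23.5 to 27). Since the missing call is part of the rule, these shares describe how the sites were chosen. With 18 to 22 EBF1-wt fragments, 39 of 43 peaks had no counterpart (90.7%, 78.4 to 96.3). The share was 81.7% (78.1 to 84.8) with 28 to 32 fragments and 70.9% (66.6 to 74.8) with 38 to 42. In the last band under the limit, 43 to 47 fragments, it was 58.2% (53.1 to 63.2), and in the next band above it, 48 to 52 fragments, 50.5% (45.0 to 55.9).

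**Figure D1:**
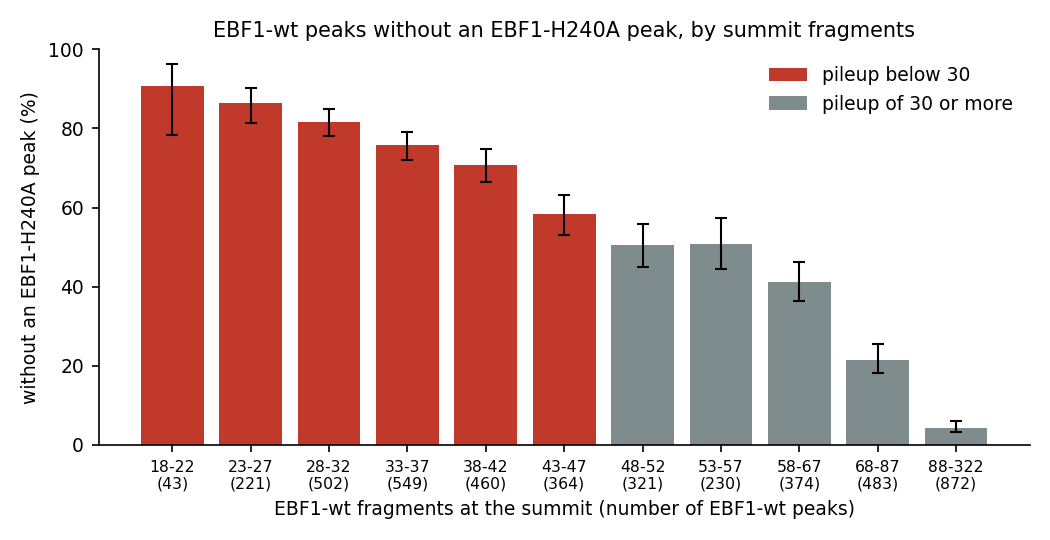
Percent of EBF1-wt peaks that share no base with an EBF1-H240A peak, by EBF1-wt fragments at the summit, with the number of peaks in brackets and 95% Wilson intervals as error bars. Red bands lie under the pileup limit of 30 and fall from 90.7% to 58.2%; grey bands lie above it and run on down to 4.36%.

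**Figure D2:**
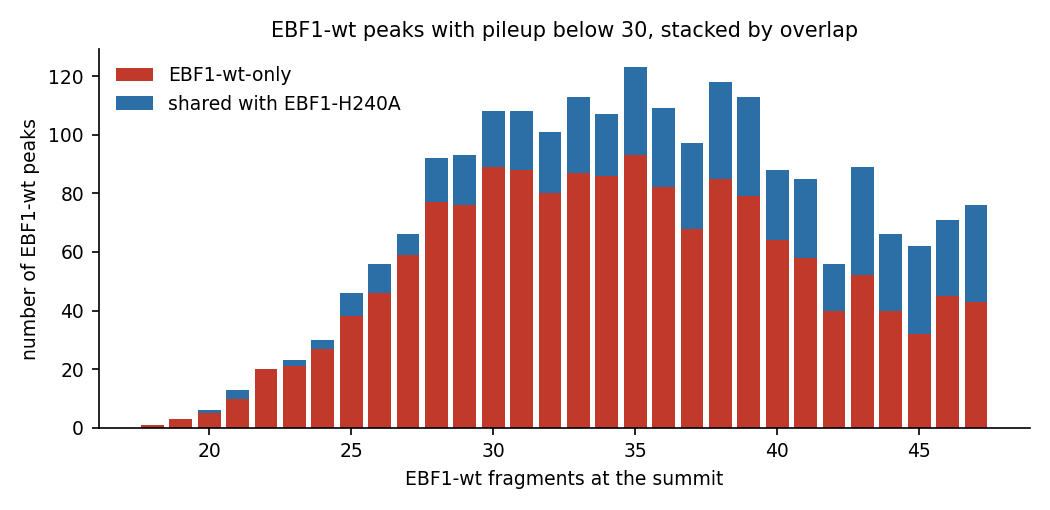
Number of EBF1-wt peaks with a pileup below 30 at each count of summit fragments, stacked as EBF1-wt-only (red) and shared with EBF1-H240A (blue). The 43 EBF1-wt-only and 33 shared peaks at 47 fragments are the last column under the limit, and all 20 peaks at 22 fragments were EBF1-wt-only.

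By the reference levels recovered from the peak lists, the EBF1-H240A library was the shallower, if both runs of the peak caller used like settings. Read totals are not given. On that condition, a site equally enriched in both libraries would have 0.443 EBF1-H240A fragments for each EBF1-wt fragment. Scaled in this way, the low-pileup EBF1-wt-only sites would have 7.97 to 20.8 EBF1-H240A fragments, with a median of 15.1. The lowest summit in the EBF1-H240A list had 10 fragments. The scaled count was under 10 at 39 of the 1594 sites (2.45%, 95% Wilson interval 1.79 to 3.33), the sites with at most 22 EBF1-wt fragments. At the other 1555 sites it was 10 or more. The scaled count was under 10 at 0.734% of the EBF1-wt peaks under the pileup limit that overlapped an EBF1-H240A peak. Over all EBF1-wt peaks it was 0.973%. Counting error around these values is wide. The lower 95% Poisson limit of the scaled count fell under 10 at 1141 sites (71.6%, 69.3 to 73.7) and was 10 or more at 453 sites (28.4%, 26.3 to 30.7). It also fell under 10 at 292 of the 545 overlapping peaks under the pileup limit (53.6%, 49.4 to 57.7), which had a call. Over all EBF1-wt peaks the share was 32.4%. The number of fragments needed for a call also depends on the local reference level. Among EBF1-H240A peaks with a reference level at or above that list's median of 1.78, the lowest summit had 11 fragments, and 87 sites (5.46%) had a scaled count under that. So had 1.65% of the overlapping peaks under the pileup limit and 2.17% of all EBF1-wt peaks. The EBF1-H240A reference level and fragment count at the sites themselves are not listed, and each site was picked for its own EBF1-wt signal. The part that depth played in the missing calls was not tested.

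The shared peaks of the same height show what EBF1-H240A counts accompanied a call. The 545 EBF1-wt peaks with a pileup below 30 that did overlap an EBF1-H240A peak had a median of 38 EBF1-wt fragments (range 20 to 47), against 34 at the EBF1-wt-only sites. Their EBF1-H240A peaks had a median of 20 fragments, with a range of 11 to 106. Scaling their EBF1-wt counts gave a median of 16.8. The listed count exceeded the scaled count at 412 of the 545 (75.6%), by a median factor of 1.21. With 23 to 27 EBF1-wt fragments the median factor was 1.46, and with 43 to 47 it was 1.05. A peak enters this set by having an EBF1-H240A call, which leaves out low EBF1-H240A counts, so the factor is set in part by the choice.

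**Figure D3:**
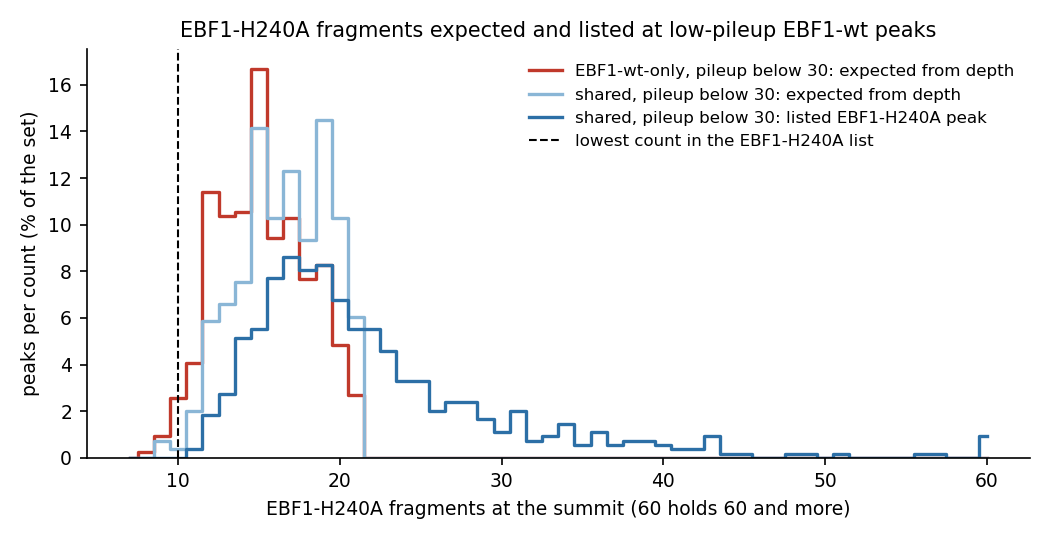
Percent of peaks at each EBF1-H240A fragment count: scaled from EBF1-wt for the 1594 EBF1-wt-only peaks with pileup below 30 (red), scaled for the 545 shared peaks under the same limit (light blue) and as listed for those shared peaks (dark blue). Most of the red curve lies to the right of the dashed line at 10, the lowest EBF1-H240A count in the list. Counting error of the scaled counts is not drawn. The red median of 15.1 lies to the left of the shared peaks' scaled median of 16.8. Their listed median of 20 covers only peaks with an EBF1-H240A call and is not a like measure.

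As called peaks the low-pileup EBF1-wt-only sites were moderate in fold and narrow. Their fold enrichment ran from 2.79 to 10.7, with a median of 6.51, and their width from 190 to 731 bp, with a median of 230 bp. The shared peaks under the same limit had medians of 6.69-fold and 246 bp, and EBF1-wt-only peaks above the limit medians of 10.9-fold and 301 bp. Under 250 bp were 1051 sites (65.9%), and 32 (2.01%) reached 400 bp. Of the shared peaks under the limit, 52.1% were under 250 bp and 4.40% reached 400 bp. Of all EBF1-wt peaks it was 32.5% and 16.0%. The authors' −log10 q-value, a score of how far the peak exceeds its reference, had a median of 9.84 (range 2.06 to 21.1). It was 5 or more at 1480 sites (92.8%) and 10 or more at 762 (47.8%). For the shared peaks under the limit these shares were 95.8% and 57.6%, and for all EBF1-wt peaks 96.9% and 75.6%.

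The medians were also set side by side at a like number of fragments. At 38 to 42 EBF1-wt fragments, the EBF1-wt-only sites had a median fold of 7.03 and the shared peaks 6.97, and at 43 to 47 fragments both had 7.87. Median widths were 241.5 and 248.5 bp in the first of these bands and 263 and 267.5 bp in the second, with the EBF1-wt-only sites the narrower. At 33 to 37 fragments the widths were 227 and 236 bp and the folds 6.91 and 7.03, and at 28 to 32 fragments 217 and 231.5 bp and 6.28 and 6.12. At 23 to 27 fragments the EBF1-wt-only sites were the wider, at 211 against 200.5 bp, with folds of 5.63 and 5.64. The lowest band, 18 to 22 fragments, had 218 and 231.5 bp and 4.97- and 4.56-fold, with 4 shared peaks. The EBF1-wt-only sites were thus the narrower in 5 of 6 bands, and the fold differed in both directions. In every band above the limit the EBF1-wt-only peaks were also the narrower, with 277.5 against 284 bp at 48 to 52 fragments. The narrower width was therefore not particular to the low-pileup sites. These are medians over peaks of 1 library, and their differences have no replicate check.

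The local reference level at the sites was low at many of them and reached high values at a few. The peak-calling settings are not stated, and the level is taken here to come from the EBF1-wt input. On the pileup scale it had a median of 2.28 and a range of 1.88 to 9.0, where 1.88 is the lowest value the caller used for this library. That floor applied at 312 sites (19.6%), against 16.3% of shared peaks under the pileup limit and 14.0% of all EBF1-wt peaks. Among EBF1-wt peaks under the pileup limit, 79.2% (95% Wilson interval 76.1 to 81.9) had no EBF1-H240A counterpart where the level was at most 2, and 66.2% (60.8 to 71.3) where it was over 3.5. The level and the number of fragments went together, with a median level of 1.89 at EBF1-wt-only sites of 18 to 22 fragments and 2.66 at those of 43 to 47. Within 28 to 37 fragments the shares were 79.9% (75.7 to 83.7) and 76.1% (67.3 to 83.2). Within 38 to 47 fragments they were 70.5% (64.0 to 76.2) and 59.6% (52.5 to 66.3). The intervals overlap in both bands, which does not show that the shares are equal, and the differences were not tested. Between these levels the share at 38 to 47 fragments was 60.3% at 2 to 2.5 and 68.8% at 2.5 to 3.5, so it did not fall steadily with the level.

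The sites with the highest fold had the most fragments the limit allows over the lowest reference level. A set of 9 sites tied at 47 fragments (exact 95% Poisson interval 34.5 to 62.5) and 10.7-fold enrichment, which placed them at rank 1608 of the 4419 EBF1-wt peaks. Positions here and below are in the mm9 build. Chromosome 1 held 108028943 to 108029198 and 171903065 to 171903340, and chromosome 9 held 92516681 to 92516938 and 107853021 to 107853342. The others were 104572341 to 104572606 on chromosome 2, 117406327 to 117406610 on chromosome 11, 31104619 to 31104854 on chromosome 14, 30692428 to 30692792 on chromosome 16 and 24488633 to 24488955 on chromosome 18. The tenth, 43422774 to 43423038 on chromosome 10, also had 47 fragments and was enriched 10.6-fold. Equal enrichment would give each of these sites 20.8 EBF1-H240A fragments. They lay between 15009 bp (the chromosome 16 site) and 2895593 bp (the first chromosome 9 site) from the nearest EBF1-H240A peak.

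At the other end, the lowest summit was at 164159316 to 164159552 on chromosome 2, with 18 fragments (10.7 to 28.4), 4.23-fold enrichment and a −log10 q of 2.74. The next lowest had 19 fragments (11.4 to 29.7), at 16609230 to 16609483 on chromosome 1, 36446479 to 36446703 on chromosome 18 and 137304767 to 137304961 on chromosome 4. The fifth, with 20 fragments, was at 127547985 to 127548208 on chromosome 10. Scaled to the EBF1-H240A depth these 5 would have 7.97 to 8.86 fragments, under the lowest count of that list.

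Low fold was not the same as few fragments. The site with the lowest fold of all 4419 EBF1-wt peaks, 110556252 to 110556488 on chromosome 9 (2.79-fold), had 38 fragments over a reference level of 8.0. The highest reference level, 9.0, was at 117702785 to 117702999 on chromosome 11, where 45 fragments gave 2.95-fold enrichment. Levels of 7.0 were found at 25919920 to 25920113 on chromosome 7 (39 fragments, 3.22-fold) and at 66348520 to 66348723 on chromosome 17 (35 fragments, 2.90-fold). The fifth highest, 6.00, was at 38598230 to 38598472 on chromosome 2 (41 fragments, 3.86-fold). The 5 sites listed lowest by reference level all sat at the floor with 21 fragments and 4.97-fold enrichment, on chromosomes 4, 5, 10, 13 and 16, and differ from the rest of the 312 floor sites in that level by rounding alone.

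Some low-pileup sites were broad. The widest, 137300069 to 137300799 on chromosome 4, covered 731 bp with 41 fragments at its summit and 6.75-fold enrichment. Its neighbour 4634 bp away, summit to summit, was one of the lowest peaks named above. Next came 119130556 to 119131184 on chromosome 9 (629 bp, 36 fragments) and 135415145 to 135415765 on chromosome 5 (621 bp, 40 fragments). The other 2 were 136730860 to 136731474 on chromosome 5 (615 bp, 24 fragments) and 28344586 to 28345197 on chromosome 17 (612 bp, 32 fragments).

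The distance from low-pileup EBF1-wt-only sites to the nearest EBF1-H240A peak varied widely, and a small group lay beside one. The median distance between the nearest bases was 94998 bp. Of the 1594 sites, 812 (50.9%) had an EBF1-H240A peak within 100 kb, 237 (14.9%) within 10 kb, 79 (4.96%) within 2 kb and 21 (1.32%) within 500 bp. At 165 sites (10.4%, 95% Wilson interval 8.95 to 11.9) the nearest was more than 1 Mb away. EBF1-wt-only peaks above the pileup limit were similarly placed, with a median of 72167 bp, 18.1% (15.2 to 21.4) within 10 kb and 10.8% (8.50 to 13.6) beyond 1 Mb. The interval within 10 kb was 13.2 to 16.7 for the low-pileup sites and overlaps that of the higher peaks, and the difference was not tested.

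**Figure D4:**
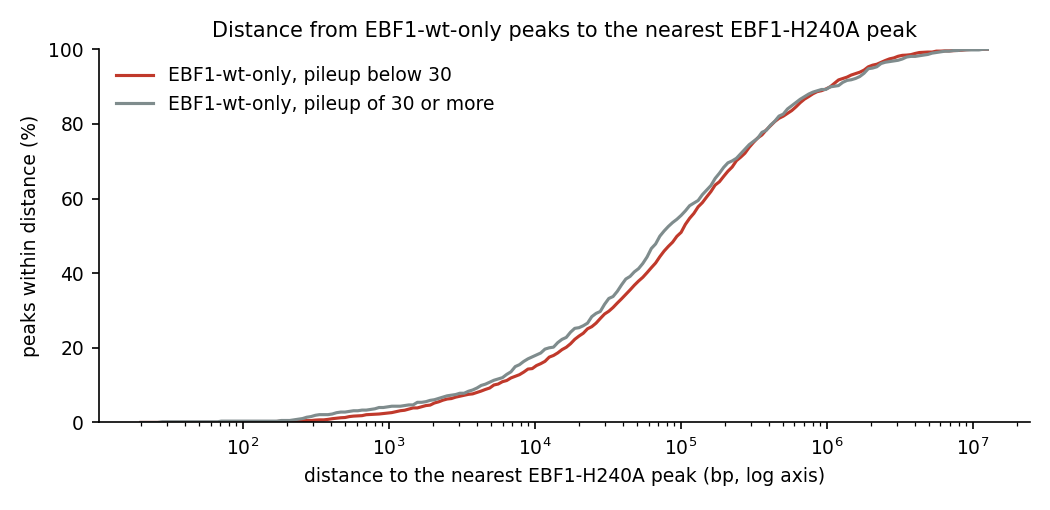
Cumulative percent of EBF1-wt-only peaks by distance between nearest bases to an EBF1-H240A peak, on a log axis, for pileups below 30 (red, 1594 peaks) and of 30 or more (grey, 575 peaks). The curves run close together and stand at 14.9% and 18.1% at 10 kb and at 50.9% and 55.5% at 100 kb.

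Where an EBF1-H240A peak was within 10 kb of a low-pileup site, it was usually itself at another EBF1-wt peak. This held for 205 of the 237 sites (86.5%, 81.6 to 90.3). Among EBF1-wt-only peaks above the limit it held for 88 of 104 (84.6%, 76.5 to 90.3). Counted by EBF1-H240A peak it was 191 of 221 (86.4%), near the 81.5% over all EBF1-H240A peaks. It was therefore not particular to the low-pileup sites. The 221 EBF1-H240A peaks concerned had a median of 28 fragments, against 25 over all 2757 EBF1-H240A peaks on these chromosomes. The 5 closest sites were 102 to 175 bp from an EBF1-H240A peak. At 7557730 to 7557928 on chromosome 19, 28 EBF1-wt fragments lay 102 bp from an EBF1-H240A peak of 15 fragments. At 127161625 to 127161842 on chromosome 2, 34 EBF1-wt fragments lay 138 bp from an EBF1-H240A peak of 171 fragments and 67.9-fold enrichment. The site at 137253558 to 137253856 on chromosome 1 (34 fragments) was 146 bp from a peak of 19 fragments. The site at 136478194 to 136478470 on chromosome 5 (35 fragments) was 162 bp from one of 43. The last, 16896654 to 16896893 on chromosome 16, had 21 EBF1-wt fragments and was 175 bp from an EBF1-H240A peak of 109 fragments. All 5 neighbouring EBF1-H240A peaks overlapped another EBF1-wt peak, so these sites were second EBF1-wt peaks beside a shared one, with EBF1-wt summits 448 to 824 bp apart.

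The most isolated site was 141035976 to 141036178 on chromosome X, with 31 fragments, 7.17-fold enrichment and 9934522 bp to the nearest EBF1-H240A peak. Chromosome 14 held the next, 104067814 to 104068016 (30 fragments, 9126175 bp), and the fifth, 103306051 to 103306306 (35 fragments, 8364412 bp). Between these in rank came 59966578 to 59966815 on chromosome 8 (35 fragments, 8967388 bp) and 73875360 to 73875583 on chromosome 4 (27 fragments, 8525890 bp). Other EBF1-wt peaks were also rare around them, with the nearest EBF1-wt summit between 761793 and 8526143 bp away.

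Within the EBF1-wt list the low-pileup EBF1-wt-only sites mostly stood alone, as did most EBF1-wt peaks. Of the 1594, 1039 (65.2%, 62.8 to 67.5) had no other EBF1-wt summit within 20 kb, against 59.4% (55.3 to 63.5) of the shared peaks under the pileup limit and 61.5% (60.04 to 62.91) of all EBF1-wt peaks. The EBF1-wt-only peaks above the limit had about the same share, 64.3% (60.3 to 68.2). Another EBF1-wt summit within 2 kb was found at 128 sites (8.03%, 6.79 to 9.47), at 62 of the 545 shared peaks (11.4%, 8.98 to 14.3) and at 48 of the 575 EBF1-wt-only peaks above the limit (8.35%, 6.35 to 10.9). For the 555 sites with a neighbour within 20 kb, the nearest EBF1-wt peak was itself shared with EBF1-H240A in 280 cases (50.5%, 46.3 to 54.6), near the 50.9% of all EBF1-wt peaks that are shared. For the 221 such shared low peaks, the nearest EBF1-wt peak was shared in 142 cases (64.3%, 57.7 to 70.3). This is a higher share, and the difference was not tested. The sets were split by the EBF1-H240A call, the same property that is then read at the neighbour. Sites can also be each other's neighbour, so these intervals treat linked sites as separate and do not measure the difference. The nearest neighbour was the taller of the pair for 428 of the 555 sites (77.1%, 73.4 to 80.4) and for 159 of the 221 shared low peaks (71.9%, 65.7 to 77.5). Both sets were chosen for low pileup, which favours a taller neighbour.

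Few runs of neighbouring EBF1-wt peaks held more than 1 of the sites. Joining EBF1-wt summits within 20 kb into runs placed the 1594 sites in 1449 runs, of which 1322 held 1 such site, 112 held 2 and 15 held 3 or more. A run with 1 such site could also hold other EBF1-wt peaks, and 1039 sites were alone in their run. The other 34.8% had an EBF1-wt neighbour within 20 kb, near the 38.5% of all EBF1-wt peaks. Runs of the other peak sets are not given here. The run with the most was on chromosome 16, from 90727486 to 90761516. It consisted of 5 low-pileup EBF1-wt-only sites and nothing else, with 30, 40, 22, 30 and 41 fragments from left to right, and the nearest EBF1-H240A peak was at least 107028 bp from each. A run on chromosome 11, from 98607305 to 98656701, held 4 of the sites, with 41, 31, 43 and 30 fragments. They flanked a tall shared peak of 117 fragments at 98637026 to 98637388, and a further EBF1-wt-only peak of 54 fragments lay at the left end. On chromosome 17, the run from 27957770 to 27980297 held 3 sites with 36, 33 and 35 fragments. Between them, at 27964488 to 27964822, lay an EBF1-wt-only peak of 102 fragments and 13.1-fold enrichment, and no EBF1-H240A peak was closer than 110714 bp to any of the 4. In the first and last of these runs no EBF1-wt peak was shared, while the chromosome 11 sites surrounded a shared one.

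The sites were found on every chromosome used. They were 36.1% of EBF1-wt peaks over all these chromosomes (95% Wilson interval 34.7 to 37.5). By chromosome the share ran from 27% (22 to 32.6) on chromosome 17, with 72 sites, to 43.3% (35.2 to 51.7) on chromosome 18, with 58 sites, and 48.8% (34.3 to 63.5) on chromosome X, with 20 sites. The extremes were picked from 20 chromosomes after the shares were seen. Chromosome 17 also had the smallest part of its EBF1-wt peaks under the pileup limit, 37.5% against 48.4% over all. Counted only among peaks under the limit, chromosome 17 had 72.0% (62.5 to 79.9) without an EBF1-H240A counterpart, close to the 74.5% over all chromosomes, and the range was 69.4% on chromosome 7 to 83.3% (64.1 to 93.3) on chromosome X. The median reference level at the sites was 3.23 on chromosome 17 and 2.24 on the others together, and the median fold 5.60 and 6.52. The sites on chromosome 17 had a median of 36 fragments and those elsewhere 34, so the lower fold on that chromosome accompanied the higher reference level and not fewer fragments.

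**Figure D5:**
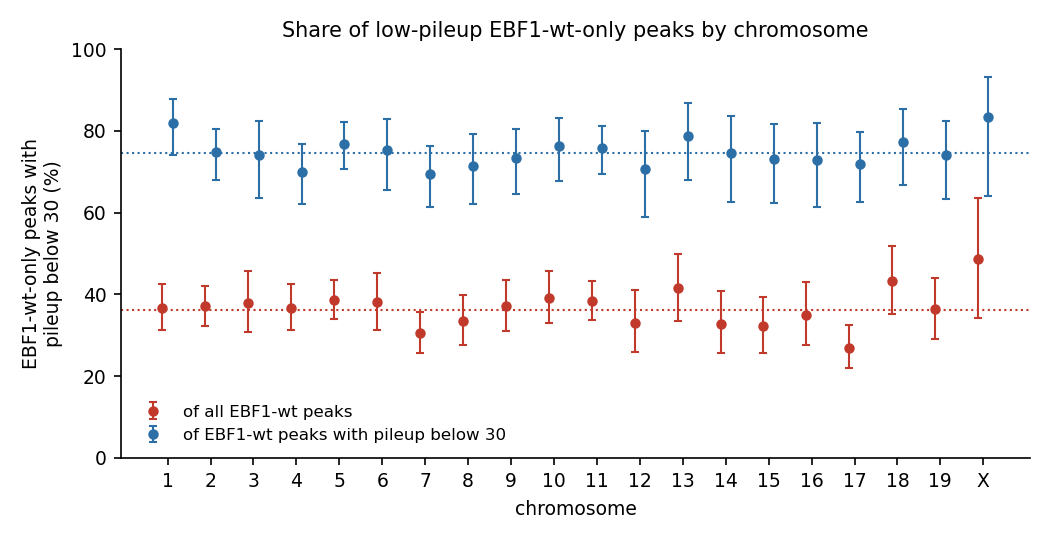
Low-pileup EBF1-wt-only sites as a percent of all EBF1-wt peaks (red) and of EBF1-wt peaks with pileup below 30 (blue) on each chromosome, with 95% Wilson intervals; dotted lines mark 36.1% and 74.5% over all chromosomes. The red value on chromosome 17 (27%) lies lowest, while its blue value (72.0%) lies near the line.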

How the data were processed

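Peak tables of the EBF1-wt and EBF1-H240A ChIP libraries were analysed. Input libraries could enter only through the peak caller's values. Samples were grouped by title. Per the labels' protocols, sonicated fragments averaged 300 bp and amplification took 10 PCR cycles. The submitters' processing notes name the mm9 build and, as tools, MACS2 2.1.0.20150731, HOMER 4.6, Bowtie2, bcl2fastq 1.8.4, Picard and SAMtools, without settings. A peak, per the file headers, carries a 1-based interval, a summit, a pileup (coverage signal), −log10 p-values and q-values, and a fold enrichment. The deposited fold is a ratio of pileup to a local reference level, with 1 added to both. Peaks were listed per library, not pooled.

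The EBF1-wt pileups, as deposited, were multiples of 0.635 (largest deviation 0.784% of a step) and the EBF1-H240A pileups whole numbers, which gave summit fragments. The reference level was recovered as (pileup + 1) / fold − 1. Its floors, 1.88 for EBF1-wt and 1.32 for EBF1-H240A, gave the factor of 0.443 if MACS2 scaled the deeper of ChIP and input down and both runs used 1 genome size setting. Read totals are not given. Overlap was at least 1 bp. Wilson and exact Poisson intervals (95%) cover counting error alone, since reads copied by PCR need not be separate molecules.

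Python 3.11.15 with pandas 2.3.3, numpy 2.4.6, scipy 1.17.1 and matplotlib 3.10.9 was used; 9 of 9 quantities were recovered on simulated peak lists. Named sites were the 10 with the highest fold, the 5 at each end of pileup, of distance to EBF1-H240A and of reference level, the 5 widest, and the 3 runs with most sites. Ties went to the higher −log10 q, then to position. The 5 EBF1-wt-only peaks just above the limit were named too, the 5 highest pileups are also the first of the highest folds, and the site of lowest fold is also second by reference level. The sites and lists were chosen with earlier results of these data known. Alternatives changed the pileup limit, the overlap rule, the q-value limit, the depth factor and the chromosomes. The 3 EBF1-wt peaks off the main chromosomes were left out. The files name no genes and the reference tables used here are for GRCm38, a build other than mm9, so the planned gene location and motif comparisons were not run and sites are named by position.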

Additional observations from a re-analysis of the deposited data

How the results depend on the processing

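The limits are 1 library per protein, an EBF1-H240A library that was shallower by the recovered reference levels, and peak lists called separately. Alternatives gave 67 values, of which 40 lay inside the reported value's interval (counts: within 1.5 times) and 27 did not. With pileup limits of 25 and 35, the share of low-pileup EBF1-wt peaks without an EBF1-H240A peak (74.5%) was 78.9% and 70.4%, the median fold (6.51) was 6.25 and 6.69, and the median width (230 bp) was 222 and 237 bp; the difference in median fold from shared peaks (-0.18) was -0.49 at 35. With 50% reciprocal overlap and with summits within 100 bp, that share was 76.5% and 76.4%, and the share with an EBF1-H240A summit within 10 kb (14.6%) was 16.7% in both. These rules only add sites that share a base with an EBF1-H240A peak, so the sites near an EBF1-H240A summit rose from 232 to 274 and 273. A −log10 q of at least 10 in the EBF1-wt list left 762 of 1594 sites. In both lists it gave 885, which include EBF1-wt peaks whose EBF1-H240A counterpart fell under that limit. In the same order, the share without an EBF1-H240A peak became 70.8% and 82.2%, the median fold 7.61 and 7.66, the median width 245 and 248 bp, the share near an EBF1-H240A summit 10.1% and 8.25%, and the share with another EBF1-wt summit within 20 kb (34.8%) 22.7% and 24.0%. Fewer EBF1-wt peaks remain as possible neighbours in both settings, and fewer EBF1-H240A peaks only in the second. The share of sites with a scaled count under the lowest EBF1-H240A count (2.45%) became 0% and 46.3%, because the first drops the lowest sites and the second raises the lowest EBF1-H240A count. It became 5.46% with the lowest count at or above the median reference level and 71.6% with the lower Poisson limit, both chosen after seeing the data. The causes of the other moves were not tested. No paired analysis was possible because there was 1 library in each group. The alternatives for motifs and gene location gave no value.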
